A study of Homo sapiens with 29 samples.

Results

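The 10 genes described here are NF-κB feedback regulators and inflammatory targets: NFKBIA, TNFAIP3, NFKB1, NFKB2, RELB, BIRC3, ICAM1, CXCL2, CCL2 and IRF1. They were chosen by name, as the 10 entries of a table of 66025 Ensembl genes whose identifiers carry those symbols, and each symbol had 1 entry. The choice was made with earlier results of these data known. The table holds 29 RNA libraries of EndoC-βH1, a human pancreatic β-cell line, in a study of crosstalk between exocrine and endocrine cells in MODY8, an inherited diabetes linked to CEL, the gene of the digestive enzyme carboxyl ester lipase. For 10 days, with daily renewal, the cells received medium that had been left on HEK293 cells for 3 hours, filtered and brought to an equal protein level. HEK293 is a human embryonic kidney line, and its stable derivatives overexpressed mutant CEL (MUT, 10 libraries), wild-type CEL (WT, 10 libraries) or an empty vector (EV, 9 libraries). The labels do not name the mutation and do not say how many HEK293 clones or β-cell cultures stood behind the libraries. All groups received HEK293-conditioned medium, so no library shows the cells in fresh medium.

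NF-κB is a family of dimeric transcription factors that inhibitor proteins hold in the cytoplasm until kinases downstream of cytokine, Toll-like or CD40-type receptors release them. Among the first genes that NF-κB switches on are its own brakes, such as the inhibitor IκBα and the ubiquitin-editing enzyme A20, and its own precursors, so the transcripts are commonly read as a record of recent pathway activity. In pancreatic β cells the pathway is best known from exposure to interleukin-1β, tumour necrosis factor and interferon-γ, when it drives chemokine and adhesion-molecule genes.

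The libraries came in 3 labelled batches. Batch 1 held 4 MUT, 4 WT and 3 EV libraries, and batches 2 and 3 each held 3 of each medium. The libraries of a medium and batch form 1 set, so within a batch an effect of the medium and an effect of that set of cells, medium or RNA cannot be told apart. Because no label states separate cultures, p-values measure the spread between libraries, which may be technical. Total estimated counts per library were 28650937 to 40246537 in MUT, 26201744 to 38338973 in WT and 27028319 to 39492162 in EV. Levels are CPM, a gene's count relative to the library's total after TMM scaling, the edgeR correction for differences in composition. All 10 β-cell markers (INS, PDX1 and MAFA among them) averaged above 1 CPM and summed to 19083 to 29933 CPM per library. The 10 leukocyte markers summed to at most 2.94 CPM, with PTPRC at most 0.135 CPM and TYROBP at 0, and the 8 endothelial markers to at most 1.12 CPM, with KDR and ERG at 0. The 9 fibroblast markers summed to at most 7.48 CPM, most of it from COL1A1. The human CEL transcript itself was low in the β cells, at 1.26 to 9.87 CPM in MUT, 1.67 to 12.9 CPM in WT and 1.49 to 13.5 CPM in EV libraries.

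Promoter sequence was available for 8 of the 10 members, from RefSeq on GRCh38.p14 and covering 250 bases before to 50 bases after each start; RELB and CCL2 had no entry. The κB consensus, a motif of 10 letters that NF-κB dimers recognise, was searched on both strands. It matched in 7 of the 8 members, against 5.91% of 35116 promoters in the table. The shorter motif GGAATTTCC, chosen after the promoters had been read and overlapping the consensus at many of its matches, occurred on either strand in 4 members (NFKBIA, NFKB1, ICAM1 and CXCL2), against 0.461% of all promoters. In both counts a member with a match in any of its promoters (11 promoters in all) is set against a share per promoter. The members were chosen as NF-κB genes, so the excess over all promoters is no independent finding. The windows below belong to 6 of the members whose levels differed between media in batch 2. Motif matches are in capitals with 30 bases on each side, written 5′ to 3′ on the strand of the gene. A match is a run of letters and was not shown to be bound in these cells.
NFKBIA: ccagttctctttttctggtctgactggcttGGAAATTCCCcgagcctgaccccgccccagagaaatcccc
TNFAIP3: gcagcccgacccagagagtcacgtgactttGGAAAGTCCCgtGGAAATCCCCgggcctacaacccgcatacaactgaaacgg
NFKB1: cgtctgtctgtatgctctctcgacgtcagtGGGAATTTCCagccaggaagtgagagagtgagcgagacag
BIRC3: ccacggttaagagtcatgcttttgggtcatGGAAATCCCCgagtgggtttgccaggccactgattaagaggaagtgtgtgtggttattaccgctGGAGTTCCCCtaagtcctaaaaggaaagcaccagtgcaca
CXCL2: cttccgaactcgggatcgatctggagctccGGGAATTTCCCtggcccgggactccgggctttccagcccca
IRF1: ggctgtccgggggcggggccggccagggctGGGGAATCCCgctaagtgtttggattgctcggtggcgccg
The NFKBIA window lies at chr14:35404791-35404860, minus strand, and that of TNFAIP3, with 2 matches, at chr6:137867162-137867243, plus strand. The NFKB1 window is chr4:102501280-102501349, plus strand, and BIRC3, again with 2 matches, is chr11:102317255-102317388, plus strand. CXCL2 is read from chr4:74099233-74099303, minus strand, and IRF1 from chr5:132490784-132490853, minus strand. In ICAM1 the shorter motif alone was found. NFKB2, which also differed between media in batch 2, had consensus matches in the promoters of 2 of its starts, and its windows are not printed here.

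To compare levels between genes, CPM were divided by the summed length of each gene's annotated exons in kilobases (GENCODE 29, GRCh38). NFKBIA, which encodes IκBα, was the most abundant member at 26.9 ± 11.1 CPM per kb (SD, n = 29 libraries) and ranged from 16.4 to 50.7, above every library of every other member. NFKB2 followed at 9.12 ± 2.13 CPM per kb and NFKB1 at 5.69 ± 0.655, and the highest NFKB1 library reached past the lowest NFKB2 library. RELB (3.59 ± 1.38) and TNFAIP3 (3.04 ± 0.727) overlapped across most of their ranges of CPM per kb. IRF1 averaged 1.40 ± 0.341 CPM per kb, CXCL2 0.888 ± 0.795 and BIRC3 0.323 ± 0.206, and each of these ranges overlapped the next. ICAM1 (0.0827 ± 0.0280 CPM per kb) and CCL2 (0.0508 ± 0.0307 CPM per kb) stood at the bottom and overlapped each other. Exon length is that of all annotated transcripts together, so a gene read mainly from a short transcript is understated.

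CCL2 and ICAM1 were close to zero. CCL2, which encodes the monocyte-attracting chemokine MCP-1, had 1 to 8 counts in MUT libraries, 1 to 7 in WT libraries and 0 to 5 in EV libraries. In CPM it reached 0.212 at most, in a MUT library of batch 2, and the EV library of batch 3 with 0 counts could hold up to 0.086 CPM at a floor of 3 counts. CCL2 failed the filter on low counts and was not tested, so 9 members entered the tests over all libraries. ICAM1, the adhesion molecule that leukocytes bind through integrins, had 5 to 15 counts in MUT and WT libraries and 7 to 20 in EV libraries. In batch 1 it measured 0.297, 0.315, 0.442 and 0.422 CPM in MUT, 0.385, 0.471, 0.396 and 0.220 CPM in WT and 0.446, 0.542 and 0.434 CPM in EV. In batch 2 ICAM1 measured 0.437, 0.292 and 0.253 CPM in MUT, 0.235, 0.205 and 0.148 CPM in WT and 0.208, 0.203 and 0.203 CPM in EV, so that the MUT libraries all lay above the others. In batch 3 it measured 0.163, 0.191 and 0.270 CPM in MUT, 0.301, 0.266 and 0.304 CPM in WT and 0.283, 0.287 and 0.274 CPM in EV, and the MUT libraries all lay below EV. ICAM1 failed the filter within batches 2 and 3 and was tested in batch 1 and over all libraries. Among the members kept, CXCL2 was also low, under 1 CPM in all 11 libraries of batch 1, with 8 counts in its lowest library.

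**Figure D1:**
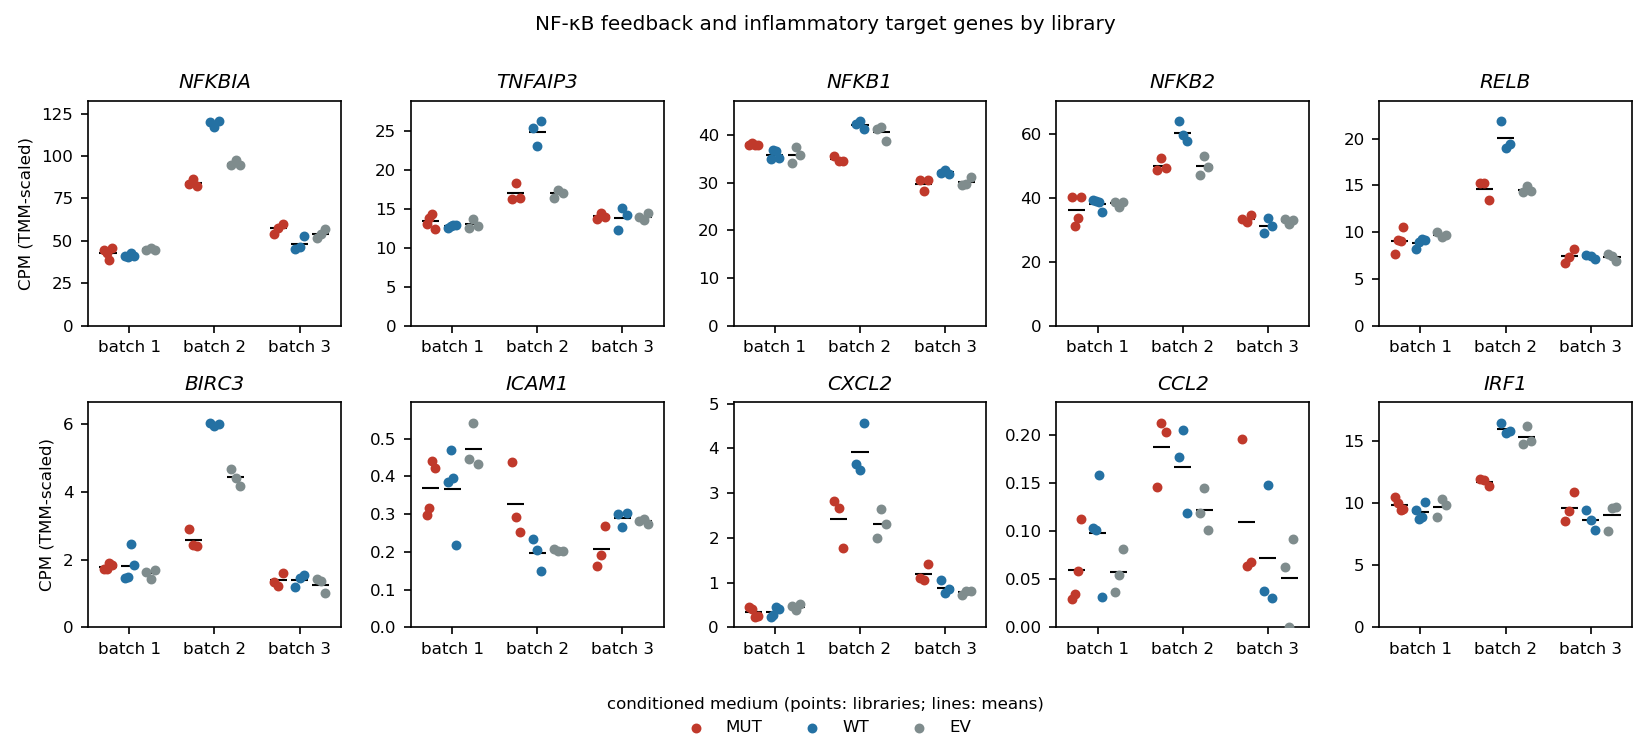
Level of each member in each of the 29 libraries (points, TMM-scaled CPM on linear axes from 0, 1 panel per gene with its own scale), by batch and, within a batch, MUT, WT and EV from left to right; lines are means of 3 or 4 libraries. NFKBIA in WT of batch 2 sits at 117 to 120.4 CPM, above all other libraries, and ICAM1 and CCL2 reach at most 0.542 and 0.212 CPM.

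The first comparison asked whether the members differed between media when all 29 libraries were fitted with batch as a term. They did not pass the test: edgeR's quasi-likelihood test with Benjamini-Hochberg adjustment over 21259 genes called 0 of 9 members in each of MUT against EV, MUT against WT and WT against EV. Across all genes tested, 5.2%, 0.884% and 0.315% were called in those comparisons. At an unadjusted p under 0.05 the members counted 0 for MUT against EV, 2 (TNFAIP3 and BIRC3) for MUT against WT and 1 (TNFAIP3) for WT against EV, and DESeq2 also called 0 in each. The 3 comparisons share libraries, so they are not independent of each other.

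BIRC3, which encodes the apoptosis inhibitor and ubiquitin ligase cIAP2, gave the lowest p of the members for MUT against WT. Its log2 fold change was -0.42 ± 0.14 (SE, adjusted p = 0.134), and it was called at -0.57 without batch 3 and at -0.53 with limma-voom quality weights. Over all batches BIRC3 averaged 1.91 ± 0.528 CPM in MUT, 2.94 ± 2.13 in WT and 2.43 ± 1.52 in EV (SD, n = 10, 10 and 9). TNFAIP3, the A20 gene, averaged 14.7 ± 1.80 CPM in MUT, 16.7 ± 5.71 in WT and 14.6 ± 1.85 in EV, with a log2 fold change of 0.18 ± 0.07 for WT against EV (adjusted p = 0.263). NFKBIA averaged 59.7 ± 18.2 CPM in MUT, 66.8 ± 36.4 in WT and 65.0 ± 23.3 in EV, and its 3 log2 fold changes lay between -0.06 and 0.02. In each of these genes the SD in WT exceeded that in MUT, and the WT libraries of batch 2 stood far above those of the other batches. The median log2 fold change of the 9 members was -0.04, -0.08 and 0.07 for MUT against EV, MUT against WT and WT against EV, against 0.00 over all genes tested in each.

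In the fit over all 29 libraries, which averages each media difference over the batches, the members differed more between batches than between media. All 9 were called for batch in that fit, where 75.9% of all genes were, so this is not particular to the members. Of all 21259 genes, 16138 were called for batch, against 1106, 188 and 67 for MUT against EV, MUT against WT and WT against EV. As averages over the media, 8 of the 9 members rose in batch 2 relative to batch 1, where 33.7% of all genes did. Within batch 2 alone, NFKB1 differed by -0.26 for MUT against WT, more than the 0.09 for batch 2 against batch 1. The other members tested there differed less between media than between those batches, BIRC3 by -1.21 against 1.27. Relative to batch 2, 8 of the 9 fell in batch 3, where 22.3% of all genes fell. CXCL2, a neutrophil-attracting chemokine, moved most, by 2.94 ± 0.17 on the log2 scale in batch 2 against batch 1 (SE, adjusted p = 1.8e-15, edgeR). It ranged from 0.231 to 0.515 CPM in batch 1, from 1.77 to 4.57 CPM in batch 2 and from 0.723 to 1.42 CPM in batch 3, with no overlap between batches. CXCL2 shares much of its sequence with the neighbouring CXCL1 and CXCL3, so its estimated counts depend on how reads common to the 3 were divided.

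NFKBIA rose by 1.21 ± 0.07 in batch 2 against batch 1 on the log2 scale (adjusted p = 8.28e-16), with 38.8 to 45.9 CPM in batch 1, 82.5 to 120.4 CPM in batch 2 and 45.2 to 60.2 CPM in batch 3. BIRC3 rose by 1.27 ± 0.13 and RELB, the activating subunit of the non-canonical pathway, by 0.83 ± 0.07. TNFAIP3 rose by 0.58 ± 0.07 and IRF1, a transcription factor shared by the interferon-γ and NF-κB responses, by 0.57 ± 0.07. NFKB2, the precursor of the p52 subunit, rose by 0.51 ± 0.05, and NFKB1, the precursor of p50, by 0.09 ± 0.04 (adjusted p = 0.0351). ICAM1 went the other way, by -0.71 ± 0.18. These values average over the media. NFKB1 fell in MUT, from a range of 37.9 to 38.3 CPM in batch 1 to one of 34.6 to 35.5 CPM in batch 2. Its mean rose in WT (35.9 to 42.1 CPM) and in EV (35.8 to 40.6 CPM). The mean of BIRC3 rose from 1.79 to 2.58 CPM in MUT, from 1.81 to 5.99 CPM in WT and from 1.59 to 4.43 CPM in EV. Every library of batch 2 lay above every library of batches 1 and 3 for NFKBIA, TNFAIP3, NFKB2, RELB, CXCL2 and IRF1. How many of all genes did so was not counted. For BIRC3 the MUT libraries of batch 2 (2.91, 2.44 and 2.40 CPM) reached down to the highest WT library of batch 1 (2.45 CPM). Batch 3 against batch 1 split the members, with CXCL2 (1.36 ± 0.19) and NFKBIA (0.31 ± 0.07) higher, NFKB1, NFKB2, RELB, BIRC3 and ICAM1 lower (-0.20 to -0.61), and TNFAIP3 and IRF1 not called (0.10 ± 0.07 and -0.08 ± 0.07). Of all 21259 genes tested, 6363 were called higher and 5671 lower in that comparison, so calls in both directions were common. What else separated the batches (date, passage or reagent lot) is not given in the labels, and its part was not tested.

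Whether a difference between media changed from batch to batch was asked with the interaction of medium and batch. For MUT against WT, 8 of 9 members were called (all but ICAM1), where 28.4% of all genes were. For WT against EV, 5 were called (NFKBIA, TNFAIP3, NFKB2, RELB and CXCL2) against 24.1% of all genes, and for MUT against EV, 4 (NFKBIA, NFKB1, BIRC3 and IRF1) against 44%. The adjusted p for MUT against WT ran from 2.27e-08 for NFKBIA to 0.0188 for NFKB2 (edgeR). Without EV replicate 1 of batch 2, 3 members (NFKBIA, TNFAIP3 and RELB) remained called for WT against EV. With single libraries left out, 6 to 8 members were called for MUT against WT and 3 to 5 for MUT against EV. Each batch was therefore also fitted alone.

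In batch 2, all 8 members tested were lower in MUT than in WT, where 16.4% of all 20575 genes tested in that batch were lower and 16.8% higher. In the same batch 6 of 8 were higher in WT than in EV, where 19.6% of all genes were higher and 19.3% lower, and 4 of 8 were lower in MUT than in EV, where 23.8% of all genes were lower and 24.1% higher. The median log2 fold change of the 8 was -0.47 for MUT against WT, 0.38 for WT against EV and -0.09 for MUT against EV, against 0.01, -0.01 and 0.00 over all genes tested. The members were chosen with earlier results of these data known, so their counts beside these shares are no independent test.

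Of the feedback inhibitors, NFKBIA measured 83.7, 86.5 and 82.5 CPM in MUT, 120.2, 117 and 120.4 CPM in WT and 94.7, 97.6 and 94.5 CPM in EV libraries of batch 2. The 3 groups did not overlap, with WT highest and MUT lowest. NFKBIA differed by -0.50 ± 0.04 for MUT against WT (adjusted p = 3.32e-08), by -0.18 ± 0.04 for MUT against EV (adjusted p = 0.000925) and by 0.32 ± 0.04 for WT against EV (adjusted p = 3.84e-06; log2 fold change ± SE, edgeR). TNFAIP3 measured 16.2, 18.3 and 16.4 CPM in MUT, 25.3, 23.1 and 26.2 CPM in WT and 16.3, 17.5 and 17.1 CPM in EV libraries. The WT libraries stood apart, while MUT and EV overlapped. Its log2 fold change was -0.54 ± 0.07 for MUT against WT (adjusted p = 6.39e-06), 0.55 ± 0.07 for WT against EV (adjusted p = 3.69e-06) and 0.01 ± 0.07 for MUT against EV (adjusted p = 0.948).

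Among the subunits in batch 2, RELB measured 15.3, 15.2 and 13.4 CPM in MUT, 21.8, 19.0 and 19.4 CPM in WT and 14.3, 15.0 and 14.4 CPM in EV. Its WT libraries were the highest and the other media overlapped, with log2 fold changes of -0.45 ± 0.07 for MUT against WT and 0.46 ± 0.07 for WT against EV (adjusted p = 8.86e-05 and 4.81e-05). NFKB2 had the same order of groups, with 48.6, 52.3 and 49.1 CPM in MUT, 63.8, 59.5 and 57.7 CPM in WT and 47.2, 53.1 and 49.5 CPM in EV. Its differences were smaller, at -0.26 ± 0.05 for MUT against WT and 0.27 ± 0.05 for WT against EV. NFKB1 differed in pattern: it measured 35.5, 34.6 and 34.6 CPM in MUT, 42.3, 42.9 and 41.2 CPM in WT and 41.2, 41.7 and 38.8 CPM in EV. MUT was the group apart, at -0.26 ± 0.05 against WT (adjusted p = 0.000305) and -0.21 ± 0.05 against EV (adjusted p = 0.00106), while WT against EV gave 0.05 ± 0.05 (adjusted p = 0.415).

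Among the targets, BIRC3 had the widest spread of media in batch 2, with 2.91, 2.44 and 2.40 CPM in MUT, 6.03, 5.95 and 5.99 CPM in WT and 4.69, 4.41 and 4.18 CPM in EV. The groups did not overlap, and the means in MUT and WT were 2.58 and 5.99 CPM. BIRC3 differed by -1.21 ± 0.11 for MUT against WT (adjusted p = 2.37e-07), by -0.77 ± 0.11 for MUT against EV (adjusted p = 1.9e-05) and by 0.43 ± 0.10 for WT against EV (adjusted p = 0.00304). CXCL2 measured 2.83, 2.68 and 1.77 CPM in MUT, 3.65, 3.51 and 4.57 CPM in WT and 1.99, 2.64 and 2.31 CPM in EV. WT stood above both, and MUT overlapped EV, with -0.69 ± 0.17 for MUT against WT (adjusted p = 0.00498) and 0.75 ± 0.17 for WT against EV (adjusted p = 0.00208). IRF1 resembled NFKB1 in order: it measured 11.9, 11.8 and 11.4 CPM in MUT, 16.4, 15.6 and 15.8 CPM in WT and 14.7, 16.2 and 14.9 CPM in EV. MUT was the lowest group, at -0.44 ± 0.06 against WT (adjusted p = 4.54e-05) and -0.38 ± 0.06 against EV (adjusted p = 8.99e-05), and WT against EV gave 0.06 ± 0.06 (adjusted p = 0.496). IRF1 shares 1716 exon bases with C5orf56 on the opposite strand, and the strand setting of the counting is not given in the sources used here, so reads of the 2 genes may be mixed. The same holds for ICAM1, which shares 815 exon bases with AC011511.5, and for 95 bases of TNFAIP3 shared with AL357060.1.

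Other quantities also differed between the media of batch 2. The fibroblast markers summed to 6.27 to 6.87 CPM in MUT, 5.89 to 7.48 CPM in WT and 2.48 to 3.13 CPM in EV, and 1 of the 9 averaged at least 1 CPM. The leukocyte markers summed to 1.26 to 2.52, 2.49 to 2.94 and 1.99 to 2.81 CPM in MUT, WT and EV, and the endothelial markers to at most 0.445 CPM in any library of the batch. The β-cell markers summed to 19083 to 20230.1 CPM in MUT, 23909 to 24891 CPM in WT and 23439 to 25636 CPM in EV. Most of the β-cell sum came from INS and CHGA, which averaged 11655 and 8968 CPM over all libraries. The part of these shifts in the member differences was not tested. In bulk RNA fewer cells of a type and less RNA per cell cannot be told apart.

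Batches 1 and 3 gave a different result. In batch 1 edgeR called 0 of 9 members for MUT against EV, MUT against WT and WT against EV, where 1.4%, 0.277% and 0.0143% of all genes were called, with 0 members at an unadjusted p under 0.05 and 0 by DESeq2 in each. NFKBIA there measured 44.9, 42.6, 38.8 and 45.7 CPM in MUT, 41.1, 40.5, 43.0 and 41.0 CPM in WT and 44.9, 45.9 and 44.5 CPM in EV. The WT libraries lay below those of EV, the reverse of their order in batch 2, at -0.12 ± 0.06 on the log2 scale (adjusted p = 0.517). BIRC3 measured 1.73, 1.72, 1.89 and 1.83 CPM in MUT, 1.46, 1.48, 2.45 and 1.85 CPM in WT and 1.63, 1.44 and 1.71 CPM in EV, so that the MUT libraries lay just above EV.

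In batch 3 edgeR called 0 of 8 members in each comparison, where 0.049%, 1.22% and 0.00981% of all genes were called for MUT against EV, MUT against WT and WT against EV. At an unadjusted p under 0.05 each comparison had 1 member, CXCL2 for MUT against EV and NFKBIA for the other two, and DESeq2 called NFKBIA for MUT against WT and 0 members otherwise. NFKBIA measured 54.3, 57.8 and 60.2 CPM in MUT, 45.2, 46.7 and 52.9 CPM in WT and 51.5, 54.3 and 57.1 CPM in EV. All MUT libraries lay above all WT libraries, opposite to batch 2, with a log2 fold change of 0.25 ± 0.07 (adjusted p = 0.08), and without WT replicate 3 of that batch NFKBIA was called. CXCL2 measured 1.11, 1.05 and 1.42 CPM in MUT, 1.05, 0.768 and 0.850 CPM in WT and 0.723, 0.804 and 0.821 CPM in EV, with 0.60 ± 0.22 for MUT against EV (adjusted p = 0.237).

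The size of these differences was not shared by the 3 batches. For MUT against WT the log2 fold change of TNFAIP3 was 0.04 ± 0.06, -0.54 ± 0.07 and 0.02 ± 0.08 in batches 1, 2 and 3, and that of BIRC3 was -0.04 ± 0.17, -1.21 ± 0.11 and -0.02 ± 0.20. RELB gave 0.02 ± 0.09, -0.45 ± 0.07 and 0.01 ± 0.10, and IRF1 0.07 ± 0.08, -0.44 ± 0.06 and 0.14 ± 0.11. In batches 1 and 3 these values lay within their standard errors of 0, except IRF1 in batch 3. With batch 2 left out, the pooled difference for MUT against WT turned positive for NFKBIA (0.14), TNFAIP3 (0.04), RELB (0.02), CXCL2 (0.24) and IRF1 (0.11), and no member was called.

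**Figure D2:**
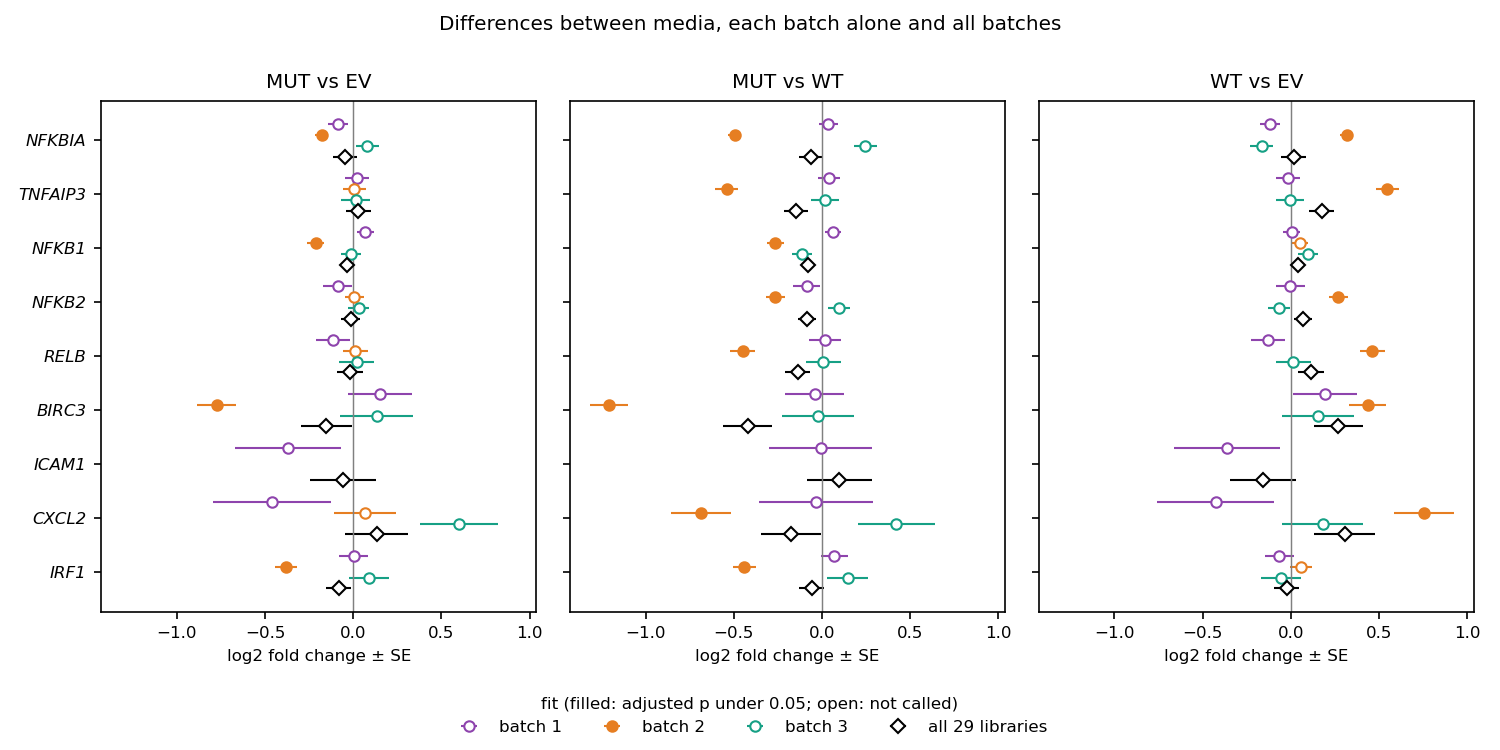
Log2 fold change between media (horizontal axis, points with bars of 1 SE) of the 9 members tested, for MUT against EV, MUT against WT and WT against EV, in each batch alone (circles) and over all 29 libraries with batch as a term (diamonds); filled symbols passed an adjusted p of 0.05. The batch 2 circles for MUT against WT lie left of 0 for all 8 members tested there, from -0.26 to -1.21, and no symbol of batch 1, of batch 3 or of the fit over all libraries is filled.

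The remaining members in batches 1 and 3 can be given by range. In batch 1, TNFAIP3 lay between 12.4 and 14.3 CPM and RELB between 7.65 and 10.5 CPM. The media overlapped for TNFAIP3. For RELB all WT libraries (8.19 to 9.31 CPM) lay below all EV libraries (9.48 to 10.1 CPM), the reverse of batch 2, at -0.13 ± 0.10 on the log2 scale (adjusted p = 0.705), and MUT overlapped both. NFKB1 stood at 37.9 to 38.3 CPM in MUT, 35.0 to 36.8 CPM in WT and 34.2 to 37.4 CPM in EV in batch 1, where the MUT libraries lay above the others, by 0.06 ± 0.05 against WT (adjusted p = 0.508). In batch 3 NFKB1 measured 28.3 to 30.7 CPM in MUT, 31.8 to 32.7 CPM in WT and 29.6 to 31.2 CPM in EV, and all MUT libraries lay below all WT libraries, at -0.11 ± 0.06 (adjusted p = 0.308). IRF1 ranged from 8.71 to 10.5 CPM in batch 1 and from 7.76 to 10.9 CPM in batch 3 with all media overlapping, and NFKB2 from 31.2 to 40.3 and 28.9 to 34.6 CPM, again overlapping. The media also overlapped in batch 3 for TNFAIP3 (12.2 to 15.1 CPM), RELB (6.70 to 8.27 CPM) and BIRC3 (up to 1.62 CPM).

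The rest of the pathway was examined through 5 lists of 88 genes, of which 87 had an entry. Over all libraries, 3 genes passed the test, all for MUT against EV and all higher: TAB2, an adaptor of the TAK1 kinase (0.17 ± 0.04, adjusted p = 0.0258), CHUK, the kinase IKKα (0.16 ± 0.05, adjusted p = 0.0497), and TAX1BP1, a ubiquitin-binding partner of A20 (0.16 ± 0.04, adjusted p = 0.0261). They made up 2 of the 23 receptors, adaptors and kinases tested and 1 of the 12 ubiquitin-editing enzymes and partners. The other subunits and inhibitors, the other targets and the interferon-γ route had 0 of 7, 0 of 17 and 0 of 9. Of all genes 5.2% were called, and over the 5 lists together the calls are near that share. In no list was a gene called for MUT against WT or WT against EV. All 3 lost their call when batch 2 was left out (0.06, 0.05 and 0.10 for TAB2, CHUK and TAX1BP1) and when batch 1 was (0.19, 0.19 and 0.14). The folds of TAB2, CHUK and TAX1BP1 stayed at 0.17, 0.16 and 0.15 with limma-voom allowing for correlated libraries of a batch and medium, but the adjusted p was then 0.318, 0.453 and 0.375 with an estimated correlation, itself 0.431. With 1 summed profile per batch and medium they were 0.18, 0.16 and 0.15 (adjusted p = 0.919 each), and with limma-voom quality weights 0.11, 0.09 and 0.12 (adjusted p = 0.145, 0.298 and 0.107). None of the 3 was called without a batch term, with only the 2 groups compared or with a replicate block either. CHUK lost its call by total library size, without a filter on low counts and without robust estimation too (0.15, 0.16 and 0.16). Without that filter TAX1BP1 was not called (0.15). TAB2 and TAX1BP1 also lost their call without any single MUT or EV library of batch 2 (0.15 to 0.17 and 0.13 to 0.16). CHUK lost it without any single library of batch 2, any MUT library, EV replicates 2 or 4 or WT replicates 1, 3 or 4 of batch 1, or EV replicate 1 or WT replicates 2 or 3 of batch 3 (0.13 to 0.17).

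Many of the transcripts that commonly mark a strong cytokine response were near zero; the genes named here, other than RELA, were picked from the lists after their values were seen. Of 31 matched target genes outside the members, 18 averaged under 1 CPM, among them IL6, IL1B, NOS2, CXCL10, CCL5 and SELE, whose highest library held at most 0.279 CPM, and VCAM1 was at 0 in every library. TNF averaged 0.214 CPM but reached 2.76 CPM, or 109 counts, in MUT replicate 3 of batch 2, against 0.941 CPM in the next library. Of the 27 receptors, adaptors and kinases, 6 averaged under 1 CPM, and all 6 were receptors (CD40, TLR2, TLR3, TLR4, TNFRSF1B and IL1R1). Other receptors were expressed: TNFRSF11A, the receptor RANK, averaged 100.2 CPM, the lymphotoxin-β receptor LTBR 31.4 CPM, the TNF receptor TNFRSF1A 13.2 CPM and the interleukin-1 co-receptor IL1RAP 9.28 CPM. RELA, the p65 subunit that pairs with p50, was expressed throughout, and in batch 2 it averaged 60.5 ± 3.71 CPM in MUT, 62.5 ± 0.476 CPM in WT and 57.0 ± 1.79 CPM in EV. RELA gave -0.04 ± 0.05 for MUT against WT and 0.09 ± 0.05 for MUT against EV, neither called (adjusted p = 0.561 and 0.127), and 0.13 ± 0.05 for WT against EV (adjusted p = 0.0376). That call was lost without any single WT library or without EV replicate 2 or 3 of batch 2 (0.12 to 0.14). It was also lost by total library size (0.12, adjusted p = 0.059, edgeR).

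In batch 2 the lists were counted beside the members. Both were chosen with earlier results of these data known, so the counts beside the shares of all genes are descriptive. For MUT against WT, 4 of 7 other subunits and inhibitors fell and 0 rose, and 8 of 17 other targets fell and 2 rose. Of the receptors, adaptors and kinases, 6 of 21 fell and 3 rose, of the ubiquitin-editing genes 5 of 12 fell and 1 rose, and of the interferon-γ route 5 of 9 fell and 1 rose. Of all genes 16.4% fell and 16.8% rose in this comparison. The list medians were -0.22, -0.31, -0.07, -0.09 and -0.15, against -0.47 for the members and 0.01 for all genes. For WT against EV, 5 of 7, 8 of 17, 12 of 21, 6 of 12 and 5 of 9 rose in those lists, and 0, 3, 2, 0 and 1 fell, where 19.6% of all genes rose and 19.3% fell. For MUT against EV the lists were mixed, with 1, 5, 6, 3 and 2 rising and 3, 6, 4, 4 and 3 falling, where 24.1% of all genes rose and 23.8% fell. Several of these MUT against EV counts, such as 6 of 21, 3 of 12 and 2 of 9 rising and 4 of 21 falling, are near those shares.

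The following genes are named after their values were seen, as those with large differences in batch 2. NFKBIZ, an atypical IκB that acts in the nucleus, averaged 41.2 ± 0.333 CPM in MUT, 75.7 ± 2.04 CPM in WT and 54.8 ± 1.83 CPM in EV, and differed by -0.87 ± 0.04 for MUT against WT (adjusted p = 1.35e-10). TNIP1, which binds A20, averaged 121 ± 4.22 CPM in MUT, 200.2 ± 5.14 CPM in WT and 165 ± 6.93 CPM in EV, and ZC3H12A, an RNase that degrades inflammatory transcripts, 10.3 ± 0.188, 22.7 ± 0.851 and 15.2 ± 1.40 CPM in the same order of media. All these genes had the order of NFKBIA and BIRC3, with WT highest, EV between and MUT lowest. The chemokine CXCL1 followed it too, with 6.73 ± 0.287 CPM in MUT, 13.6 ± 0.602 CPM in WT and 8.46 ± 0.463 CPM in EV. CEBPB, a transcription factor of the acute-phase response, averaged 9.77 ± 1.19 CPM in MUT, 22.2 ± 1.46 CPM in WT and 7.83 ± 1.11 CPM in EV, and IRF9, a subunit of the interferon-induced complex ISGF3, 4.57 ± 0.309, 12.9 ± 0.622 and 5.89 ± 0.124 CPM in that order.

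Some targets, also named after their values were seen, had other orders in batch 2. PTGS2, the inducible cyclooxygenase, averaged 813 ± 29.1 CPM in MUT, 693 ± 28.6 CPM in WT and 266 ± 7.30 CPM in EV, and rose by 1.62 ± 0.04 for MUT against EV (adjusted p = 2.89e-14). TNFAIP2 averaged 6.22 ± 0.125 CPM in MUT, 10.8 ± 0.452 CPM in WT and 18.8 ± 1.29 CPM in EV, and fell by 1.59 for MUT against EV (SE 0.07). CD83, a surface protein of activated immune cells, averaged 14.0 ± 0.343 CPM in MUT, 21.6 ± 0.571 CPM in WT and 30.3 ± 1.22 CPM in EV. In both of these genes EV was the highest group and MUT the lowest. Outside batch 2, 2 calls were made in the lists: PTGS2 rose in MUT against WT in batch 1 (0.25 ± 0.04, adjusted p = 0.0428) and CX3CL1, a membrane-bound chemokine, in MUT against WT in batch 3 (0.28 ± 0.06, adjusted p = 0.0398).

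**Figure D3:**
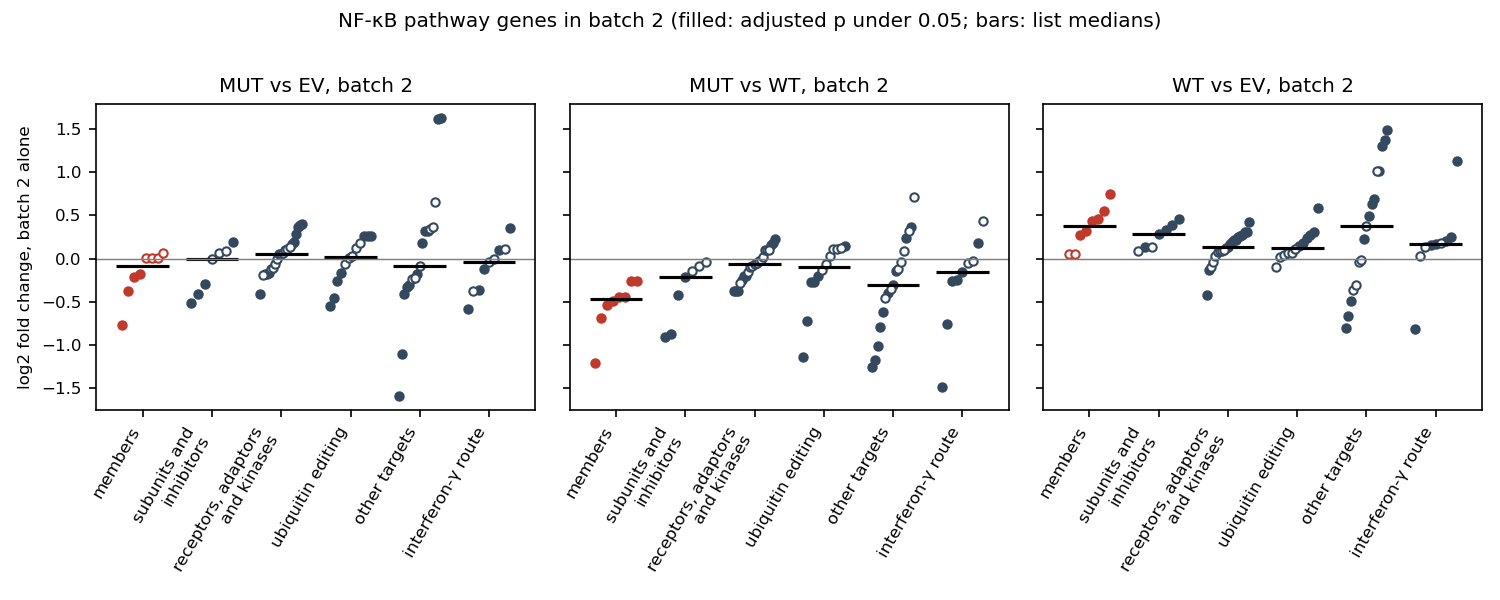
Log2 fold change between media within batch 2 (vertical axis) of the 8 members tested (red) and of the genes of 5 pathway lists (dark blue), each point a gene, filled where the adjusted p was under 0.05, with bars at list medians. For MUT against WT the members lie wholly below 0 (median -0.47) while each list spans 0 except the subunits and inhibitors (median -0.22). For MUT against EV, PTGS2 (1.62) and the lymphotoxin gene LTB (1.63) stand highest and TNFAIP2 (-1.59) lowest, genes named here because of these values. LTB was low, with means of 0.810 CPM in MUT and 0.257 CPM in EV of batch 2.

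The members also varied together. Over the 36 pairs of the 9 kept members, Pearson's r of log2 CPM across the 29 libraries had a median of 0.781 and ran from -0.66 to 0.95. With the batch means removed the median was 0.456, and with the mean of each batch and medium removed it was 0.073. The libraries of a batch share their level, so these values describe the data and carry no p.

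The genes of most similar pattern were taken among the 12007 or 12008 genes that averaged at least 5 CPM, by Pearson's r over the 29 libraries. NFKBIA was most like DEGS2 (r = 0.98) and TNIP1 (0.97), and with batch means removed like SLC6A19 (0.92) and CBX7 (0.90). TNFAIP3 was most like CD74 (0.96) and CA8 (0.94), and within batches like IFI6 (0.90) and ANGEL1 (0.89). NFKB1 was most like PARP14 (0.94) and KCNMA1 (0.92), and within batches like CYSLTR2 (0.84) and PARP9 (0.83). The first r of each gene includes the difference between batches. NFKB2 was most like COL6A1 and PROCR (both 0.95), and within batches like DLG4 (0.85) and NPEPL1 (0.84). RELB was most like ELF3 and BTN3A2 (both 0.96), and within batches like ESRRA and COL9A2 (both 0.85). BIRC3 was most like BTN3A1 and MAP2K3 (both 0.95), and within batches like PARP14 (0.88) and OAS1 (0.86). PARP14 thus appears for both NFKB1 and BIRC3. IRF1 was most like BTN3A1 and TAGLN2 (both 0.93), and within batches like RNASET2 (0.84) and ETV6 (0.79). CXCL2 was most like PARD6G-AS1 and RASSF10 (both 0.96), and within batches like CHRNB2 (0.73) and TMEM63C (0.71). ICAM1, at 5 to 20 counts, had the weakest likenesses, with CRMA and B4GALNT4 at 0.79 and, within batches, BOLA2-SMG1P6 at 0.69 and CCM2L at 0.65.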

How the data were processed

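The deposited values are estimated counts per Ensembl gene for 29 libraries of the EndoC-βH1 line, in 1 table, made by the authors with fastp and kallisto per the submitters' processing notes. Their versions, the genome build, the annotation and the strand setting were not given in the sources used here. Libraries were TruSeq Stranded mRNA, per the labels' protocols. Total counts per library ranged from 26201744 to 40246537. Entries without a symbol (6656) held 2.69% of the counts and stayed in the fits, since they carry Ensembl identifiers.

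Counts were rounded to whole numbers, filtered with filterByExpr (21259 genes kept) and scaled by TMM. The tests were edgeR 4.0.16 robust quasi-likelihood F tests (R 4.3.3) of medium with batch as a term, of the interaction between them, and of medium within each batch, where the filter was repeated (20942, 20575 and 20390 genes in batches 1, 2 and 3); p-values were Benjamini-Hochberg adjusted over all genes kept, and calls required an adjusted p under 0.05. Standard errors of log2 fold changes follow from the F statistic. The floor for a count of 0 is 3 counts and covers counting error only. Alternatives used DESeq2 1.42.0, limma 3.58.1 (voom), other scalings and filters, a replicate block, summed profiles, and each library or batch left out. Code was tested on simulated data.

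The members, the pathway lists and the markers were chosen with earlier results of these data known. Named were all members, RELA, pathway genes called over all libraries, and the 2 genes most like each member; genes named outside this rule are marked in the text. Libraries with the same replicate number in a batch correlated above 0.1 in 10 of 28 pairs (-0.17 to 0.39), so the numbers were not taken to pair libraries over the design. In batch 1 all 3 pairs of WT and EV libraries exceeded 0.1 (0.14, 0.21 and 0.25), and no other pair of media in a batch had all its pairs above it; there, with the replicate number as a block, 0 of 9 members were called for WT against EV, as without it. No 2 libraries of a set agreed within sampling noise (33 pairs, chi-square per gene 2.83 to 18.2). Of the 88 listed pathway genes 1 had no entry.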

Additional observations from a re-analysis of the deposited data

Results flagged for a closer look

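Of 50 groups of 4 to 10 libraries examined, 1 held a library far from the others, where chance gives about 1 in 20: in batch 1, WT replicate 4 had 35.5 CPM of NFKB2, while the other WT libraries of that batch had 38.7 to 39.2 CPM. NFKB2 was not called in batch 1 with or without this library.

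In 17 cases (8 of 9 members for MUT against WT, 5 of 9 for WT against EV and 4 of 9 for MUT against EV) the difference between media differed between batches by the interaction test (edgeR, Benjamini-Hochberg adjusted over all genes, 29 libraries). Of all genes 28.4%, 24.1% and 44% were called in those comparisons, and the count for MUT against EV is near that share. For MUT against WT the adjusted p was 2.27e-08 for NFKBIA, 1.13e-05 for TNFAIP3, 5.68e-05 for BIRC3 and 0.000173 for NFKB1. It was 0.000589 for IRF1, 0.00259 for RELB, 0.0148 for CXCL2 and 0.0188 for NFKB2. In each of these 8 genes MUT lay below WT in 3 of 3 libraries of batch 2, with log2 fold changes of -0.26 to -1.21. For WT against EV it was 1.09e-05 for NFKBIA, 2.1e-05 for TNFAIP3, 0.000679 for RELB, 0.0201 for NFKB2 and 0.0237 for CXCL2, with 3 of 3 WT libraries above EV in batch 2. For MUT against EV it was 0.000831 for NFKB1, 0.000918 for BIRC3, 0.00449 for IRF1 and 0.0229 for NFKBIA, with 3 of 3 MUT libraries below EV in batch 2. How many of all genes separated the libraries in this way was not counted. In batch 2, 16.4% of all genes were called lower in MUT than in WT. Called higher in WT than in EV were 19.6%, and lower in MUT than in EV 23.8%.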

How the results depend on the processing

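The 9 members called for batch, and the members called in batch 2 (4 for MUT against EV, 8 for MUT against WT and 6 for WT against EV), kept their number within 1.5 times under every alternative run for them. The count for MUT against WT over all libraries was 1 (BIRC3) with limma-voom quality weights and 1 (BIRC3) without batch 3, against 0. In batch 3 alone it was 1 (NFKBIA) with DESeq2, 1 (NFKBIA) without a filter on low counts and 0 to 1 when single libraries were left out. When single libraries were left out, the interaction called 6 to 8 members for MUT against WT, 3 to 5 for WT against EV and 3 to 5 for MUT against EV. With a replicate block the pooled comparisons again called 0 members; TAB2, CHUK and TAX1BP1 gave 0.17, 0.17 and 0.15 on the log2 scale for MUT against EV and were then not called (adjusted p = 0.0706, 0.101 and 0.0706, edgeR). A block among the WT and EV libraries of batch 1, chosen after seeing the data, also called 0 members there, with 1 at an unadjusted p under 0.05.

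The following log2 fold changes changed sign, none of them called before or after; the cause was not tested beyond the libraries named. Without batch 2, MUT against EV was 0.038 for NFKB1, 0.15 for BIRC3 and 0.046 for IRF1, MUT against WT was 0.14 for NFKBIA, 0.040 for TNFAIP3, 0.022 for RELB, -0.16 for ICAM1, 0.24 for CXCL2 and 0.11 for IRF1, and WT against EV was -0.14 for NFKBIA, -0.017 for TNFAIP3, -0.034 for NFKB2, -0.070 for RELB and -0.085 for CXCL2. Without batch 1, NFKB2 and RELB gave 0.015 and 0.013 for MUT against EV and IRF1 0.0071 for WT against EV. Without batch 3, MUT against EV was 0.060 for ICAM1 and -0.11 for CXCL2. Quality weights gave -0.018 for TNFAIP3 (MUT against EV) and -0.0078 for NFKBIA (WT against EV), and the replicate block 0.0021 for RELB (MUT against EV). In batch 2, MUT against EV was -0.0206, -0.0210 and -0.0154 for TNFAIP3, NFKB2 and RELB by total library size, -0.0002 and -0.0005 for TNFAIP3 and NFKB2 without a filter, and -0.0044 and -0.0050 with a stricter filter. Leaving out single libraries gave, for MUT against EV over all libraries, -0.056 to 0.0045 for RELB, -0.036 to 0.0047 for NFKB2 and -0.18 to 0.014 for ICAM1, for MUT against WT -0.020 to 0.15 for ICAM1, and for WT against EV -0.021 to 0.051 for NFKBIA and -0.049 to 0.0048 for IRF1. In batch 2 alone it gave, for MUT against EV, -0.057 to 0.038 for TNFAIP3, -0.032 to 0.050 for NFKB2, -0.022 to 0.067 for RELB and -0.054 to 0.25 for CXCL2. ICAM1 and CCL2, at 0 to 20 counts, are too shallow for differences between media to be read.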
